A study of Mus musculus with 40 samples.

Results

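The loss of 1 copy of Ezh1 on top of an Ezh2 knockout was examined in the mouse mammary gland at pregnancy day 18 (p18), shortly before birth. The mouse line called Ezh2f/f;control (E2KO) was compared with E1+/-;E2f/f;control (E1+/-E2KO), in which Ezh1 is also heterozygous. All 12463 genes that reached 1 FPKM in at least 1 of both groups were taken, out of 22552 in the deposited table, and 10089 genes lay under that level in both. FPKM counts sequenced fragments relative to transcript length and to the fragments mapped in a library. Among protein-coding genes close to the cutoff, Sfxn4 (1.00 FPKM in E2KO, 0.575 in E1+/-E2KO) was the last taken and Lrdd (0.99962 and 0.473) the first left out.

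Both groups carry floxed Ezh2 and the Cre transgene that the design calls control, in which the mouse mammary tumour virus promoter (MMTV) drives Cre in mammary epithelial cells. The whole tissue was sequenced, so cells that never make Cre also gave RNA. The mice are labelled outbred, received no treatment, and the age of the pregnant mice is not given in the labels. Each group had 3 poly(A) RNA libraries, but the table gives the authors' 1 value per gene and group, so values come with no spread or p-value and no difference was tested. Groups of 1 value each cannot overlap, and "higher" and "lower" describe these values alone. The same genotypes at day 13 (p13), also 3 libraries each and from other mice, are given beside p18. Libraries of a group were pooled by a method not given in the sources used here.

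EZH1 and EZH2 are alternative catalytic subunits of Polycomb repressive complex 2 (PRC2), which methylates lysine 27 of histone H3 and keeps developmental genes silent. EZH2 prevails in dividing cells, while EZH1 is found in resting and differentiated cells as well. In late pregnancy, prolactin acting through STAT5 turns the alveolar epithelium into a secretory tissue. Casein genes are active by mid pregnancy, while whey acidic protein and alpha-lactalbumin, the subunit that starts lactose synthesis, come later. The adipose tissue of the gland recedes as alveoli fill it.

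The altered genes were checked first. Ezh1 stood at 7.34 FPKM in E2KO and 3.41 FPKM in E1+/-E2KO glands at p18, 2.15-fold lower with 1 copy, a difference of -0.92 between the log2(FPKM + 1) values. All differences below are on this log2(FPKM + 1) scale, E1+/-E2KO minus E2KO. At p13 Ezh1 was 9.50 and 6.17 FPKM (-0.55), again lower in the heterozygote. Ezh2 was nearly the same in both groups at p18, at 6.41 and 6.24 FPKM (-0.03). Ezh2 values include exons outside any deleted part and cells without Cre, so they do not read the knockout itself. The labels do not say which exons were removed. The tissue identity was clear from casein levels and from Krt8 (279 and 289 FPKM) and Krt18 (307 and 359 FPKM), the keratins of luminal epithelium.

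Most genes lay close together in both groups. Of the 12463 genes, 85.2% differed by less than 0.5, and the median difference was 0.01. On the deposited scale 51.1% of them were above 0, and 48.5% of the genes taken at p13 were above 0 there. Counts of list members above or below 0 are to be read beside these shares. A difference of 1 or more, was reached by 365 genes (2.93%), 165 higher (1.32%) and 200 lower (1.60%) in E1+/-E2KO. Past a difference of 2 there were 35 higher and 77 lower genes, small RNAs included, and this count was not split by gene type. Among the 11910 protein-coding genes 119 were higher and 109 lower. The other calls were mostly small RNAs, which poly(A) libraries capture poorly: 120 of 184 small RNA genes passed 1, 41 higher and 79 lower, and 80 of these 120 were listed at 0 in 1 of both groups. They included 77 microRNA and 39 small nucleolar RNA genes.

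FPKM values depend on what else fills a library, and milk protein RNA filled these libraries to different degrees. The FPKM of all genes summed to 787794 in E2KO and 1151971 in E1+/-E2KO at p18, and the caseins and whey list held 31.8% and 42.9% of those sums. Setting both sums equal shifted the median of all genes by -0.46 and gave 80 higher and 695 lower genes. Equal sums without these milk proteins gave 105 and 345 (shift -0.25), and equal sums without milk proteins and erythroid genes gave 102 and 358 (shift -0.26). Equal upper quartiles (141 and 239, shift -0.08) and a median ratio of 1 (158 and 202, shift -0.01) stayed closer to the deposited scale. Where a list median below turned negative under equal sums, this is said beside it.

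**Figure D1:**
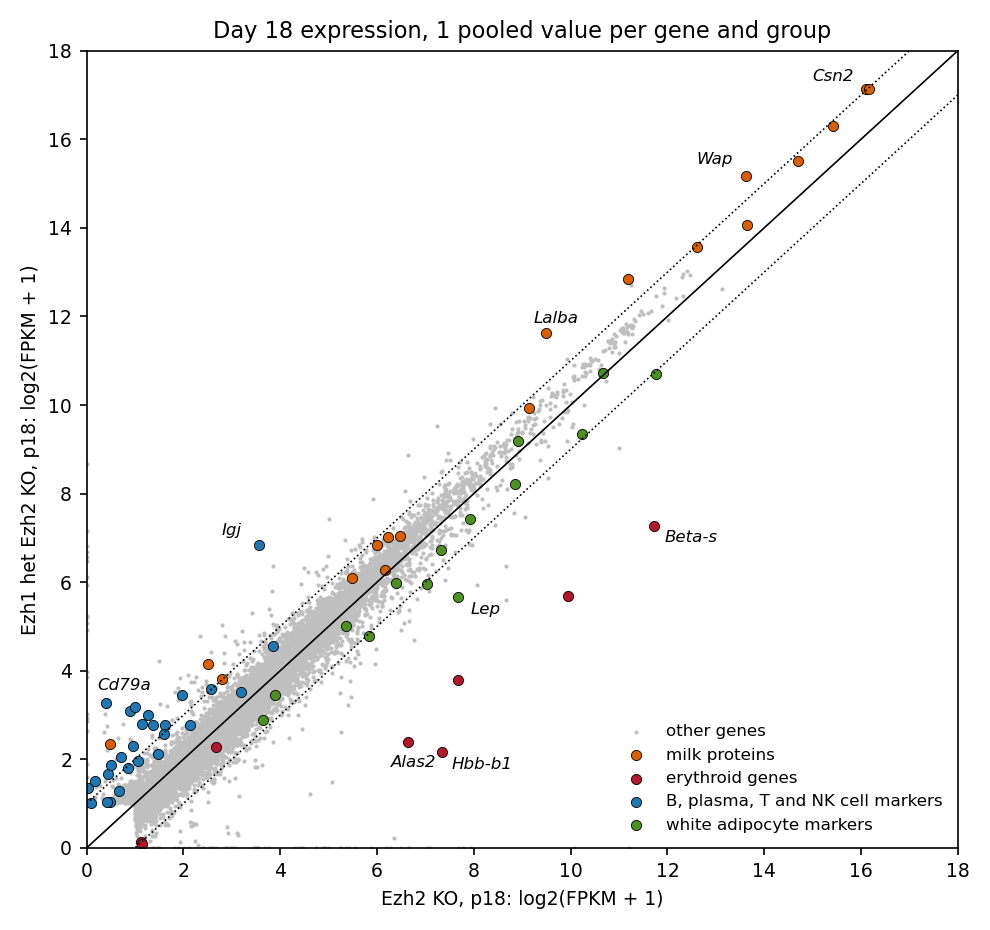
Each point is a gene, placed by log2(FPKM + 1) in E2KO (x axis) and in E1+/-E2KO (y axis) at p18, with 1 pooled value per group; the solid line marks equal values and the dotted lines a difference of 1. Milk proteins lie above the solid line, with Wap and Lalba beyond the upper dotted line, B and T cell markers lie above it at low levels, and globin genes and Alas2 lie far below.

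Milk protein genes were higher in the E1+/-E2KO glands at p18, with the widest gap at Lalba. All 5 casein genes had values above those of E2KO, with a median difference of 0.95 that stayed between 0.41 and 0.94 under the 5 other scalings, against 0.01 for all genes. Only Csn2 passed 1. Csn2, beta-casein, stood at 70592 FPKM in E2KO and 144169 in E1+/-E2KO (1.03). Csn1s2a was at 73165 and 144306 FPKM (0.98). Csn1s1 was at 26615 and 46698 FPKM (0.81), and Csn1s2b, at 88.0 and 131 FPKM, differed least (0.57). At p13 the order was the opposite for all 5 caseins, with a median of -1.11 and 4 of 5 at or below -1: Csn2 was at 42713 FPKM in E2KO and 19742 in E1+/-E2KO (-1.11), and Csn1s2a at 32011 and 13312 (-1.27).

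Of 13 whey and secreted defence proteins, all 13 were above 0 and 6 passed 1, with a median of 0.87 (0.32 to 0.86 under the other scalings). Lalba, alpha-lactalbumin, had 717 FPKM in E2KO and 3153 in E1+/-E2KO, 4.40-fold higher (2.14). Wap, whey acidic protein, had 12683 and 36766 FPKM (1.54). Spp1, the secreted phosphoprotein osteopontin, had 2337 and 7316 FPKM (1.65). A pair of low secreted products were also higher: Lpo, lactoperoxidase, at 4.69 and 16.8 FPKM (1.65) and Pip, prolactin-induced protein, at 0.397 and 4.10 FPKM (1.87). Glycam1, a mucin-like milk protein, was at 44127 and 80634 FPKM (0.87), and Expi at 12764 and 17057 (0.42). At p13 the list median was -0.53 over 12 members, and Wap (291 and 169 FPKM, -0.78) and Glycam1 (12834 and 5755 FPKM, -1.16) were lower in E1+/-E2KO, while Lalba was at 99.4 and 121 FPKM (0.28).

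Promoter sequences of these genes are shown because STAT5 binds the letters TTCNNNGAA, which read the same on both strands. RefSeq windows of 250 bases before to 50 bases after the start site (build GRCm38.p6; the expression values were made on mm9) were searched on both strands, and 9536 of the 11910 protein-coding genes had a window. TTCNNNGAA was found in 6 of 17 windows of the milk protein genes (35.3%), in 10 of 120 windows of the genes higher by 1 or more (8.33%), in 6 of 86 of the lower genes (6.98%) and in 842 of 12246 windows of all genes taken (6.88%). Over all 32851 windows of the RefSeq table the share was 8.30%. In the windows below the match is in capitals. Csn2 and Glycam1 hold 1 match each, 93 and 145 bases before the start site (relative positions -93 and -145), and Orai1, a calcium channel gene described next, holds 1 at -207. The windows of Lalba, shown for contrast, and of Wap hold none. These are matches of letters and not measured binding.
Csn2, chr5:87699376-87699675, minus strand: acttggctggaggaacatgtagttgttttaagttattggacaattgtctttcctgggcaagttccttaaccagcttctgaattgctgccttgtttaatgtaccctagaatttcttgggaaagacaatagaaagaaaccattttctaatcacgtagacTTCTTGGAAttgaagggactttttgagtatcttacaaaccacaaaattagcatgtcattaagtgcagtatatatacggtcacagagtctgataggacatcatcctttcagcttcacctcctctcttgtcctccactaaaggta
Glycam1, chr15:103565032-103565331, minus strand: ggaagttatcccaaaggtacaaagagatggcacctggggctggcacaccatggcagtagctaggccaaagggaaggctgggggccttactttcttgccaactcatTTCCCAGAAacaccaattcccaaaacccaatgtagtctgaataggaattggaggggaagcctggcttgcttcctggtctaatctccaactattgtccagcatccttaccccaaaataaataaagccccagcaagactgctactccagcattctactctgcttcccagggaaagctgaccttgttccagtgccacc
Orai1, chr5:123014824-123015123, plus strand: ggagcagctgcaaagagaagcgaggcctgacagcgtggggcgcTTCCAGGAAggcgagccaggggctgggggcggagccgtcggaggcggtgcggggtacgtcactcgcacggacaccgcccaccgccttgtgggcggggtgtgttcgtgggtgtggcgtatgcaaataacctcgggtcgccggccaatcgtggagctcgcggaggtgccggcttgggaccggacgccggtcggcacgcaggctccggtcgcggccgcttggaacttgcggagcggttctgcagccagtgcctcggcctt
Lalba, chr15:98482634-98482933, minus strand: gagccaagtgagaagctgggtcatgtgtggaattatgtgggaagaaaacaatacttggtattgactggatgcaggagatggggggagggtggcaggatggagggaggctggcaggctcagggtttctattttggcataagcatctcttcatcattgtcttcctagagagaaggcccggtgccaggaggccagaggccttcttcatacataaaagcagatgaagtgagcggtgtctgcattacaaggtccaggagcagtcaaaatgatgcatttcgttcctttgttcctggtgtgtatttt

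Genes for the ions and vitamins of milk were higher together with the milk proteins. Of 12 mineral and vitamin transport genes, 5 passed 1 and none lay at or below -1, with a median of 0.94 (0.47 to 0.93 under the other scalings). Slc34a2, the apical phosphate transporter, was at 13.2 FPKM in E2KO and 54.4 in E1+/-E2KO, 4.11-fold higher (1.96). Atp2b2, the plasma membrane calcium pump that exports calcium into milk, was at 0.341 and 3.59 FPKM (1.78). Orai1, the store-operated calcium entry channel, was at 22.9 and 74.0 FPKM (1.65), and the Golgi calcium pump Atp2c2 at 12.9 and 37.3 FPKM (1.46). Folr1, a folate receptor, was at 101 and 226 FPKM (1.15), whereas Stim1, the calcium sensor that opens ORAI1, was at 7.26 and 5.38 FPKM (-0.37). At p13 none of 11 members passed 1 in either direction and the median was -0.29.

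For lactose, the high genes were the final enzyme and its partner. B4galt1, the galactosyltransferase that joins with alpha-lactalbumin to make lactose, was at 125 FPKM in E2KO and 329 in E1+/-E2KO (1.39), the 1 gene of the 12 glucose and lactose genes past 1. The glucose transporter Slc2a1 was at 18.4 and 32.5 FPKM (0.79). The median of the 12 was 0.19 and turned to -0.32 under equal sums. The 14 amino acid transporters had no member past 1 and a median of 0.22 (-0.25 under equal sums), with Slc7a5, a large neutral amino acid transporter, at 40.5 and 73.4 FPKM (0.84).

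Among milk fat genes, those for secretion were higher in E1+/-E2KO at p18, and those for synthesis lay closer to 0. Of 10 genes for secretion of the fat globule 8 were above 0, 4 passed 1 and none lay at or below -1, with a median of 0.72 (0.17 to 0.71 under the other scalings). Cidea, a lipid droplet protein, was at 59.7 FPKM in E2KO and 233 in E1+/-E2KO (1.95). Btn1a1, butyrophilin, the main membrane protein of the globule, was at 175 and 485 FPKM (1.47), and Fabp3, a fatty acid carrier, at 2431 and 6696 FPKM (1.46). The xanthine oxidoreductase Xdh (104 and 177 FPKM, 0.76) and Plin2 (779 and 1244 FPKM, 0.67), which act with butyrophilin at the droplet surface, were higher by less than 1. The 2 below 0 were the fatty acid receptor Cd36 (666 and 588 FPKM, -0.18) and Plin3 (36.0 and 33.1 FPKM, -0.12).

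The 16 fatty acid synthesis genes had a median of 0.24, which turned to -0.29 under equal sums, and 1 member past 1. That member was Olah, the thioesterase that releases medium-chain fatty acids for milk, at 181 FPKM in E2KO and 430 in E1+/-E2KO (1.25). Fasn, the fatty acid synthase it acts on, was at 208 and 182 FPKM (-0.19), and the desaturase Scd1 at 1245 and 1025 FPKM (-0.28). At p13 the same list had 10 of 16 members past 1, with a median of 1.17: Fasn was at 299 and 772 FPKM (1.37) and Scd1 at 852 and 2983 (1.81), whereas Olah was at 78.4 and 39.2 (-0.98). Adipocytes also express Fasn and Scd1, and the adipocyte markers differed at both days (below); their part in these values was not tested. Of 14 genes for fatty acid uptake and triglyceride synthesis (median 0.09, -0.46 under equal sums) only Dgat2, which adds the last fatty acid to a triglyceride, passed 1, at 239 and 114 FPKM (-1.06). The 17 cholesterol genes taken had no member past 1 (median 0.09, -0.41 under equal sums).

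Genes of the protein secretion machinery were also higher. Of 20 genes for folding and stress in the endoplasmic reticulum (ER), 19 were above 0 and 2 passed 1, with a median of 0.74 (0.19 to 0.73 under the other scalings). Hspa5, the ER chaperone BiP, was at 202 FPKM in E2KO and 387 in E1+/-E2KO (0.94). Manf, an ER stress-induced secreted protein, was at 43.2 and 105 FPKM (1.26), and Sdf2l1, a chaperone partner of BiP, at 17.0 and 35.2 (1.01). Ddit3, the death-promoting stress factor CHOP, was at 10.8 and 10.3 FPKM (-0.07). Of 81 cytosolic ribosomal protein genes 80 were above 0, against 51.1% of all genes taken. Only 1 passed 1 in each direction, however, and the median of 0.55 became 0.00 under equal sums. The 81 oxidative phosphorylation genes had a median of 0.43 and changed side, to -0.12, under equal sums.

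**Figure D2:**
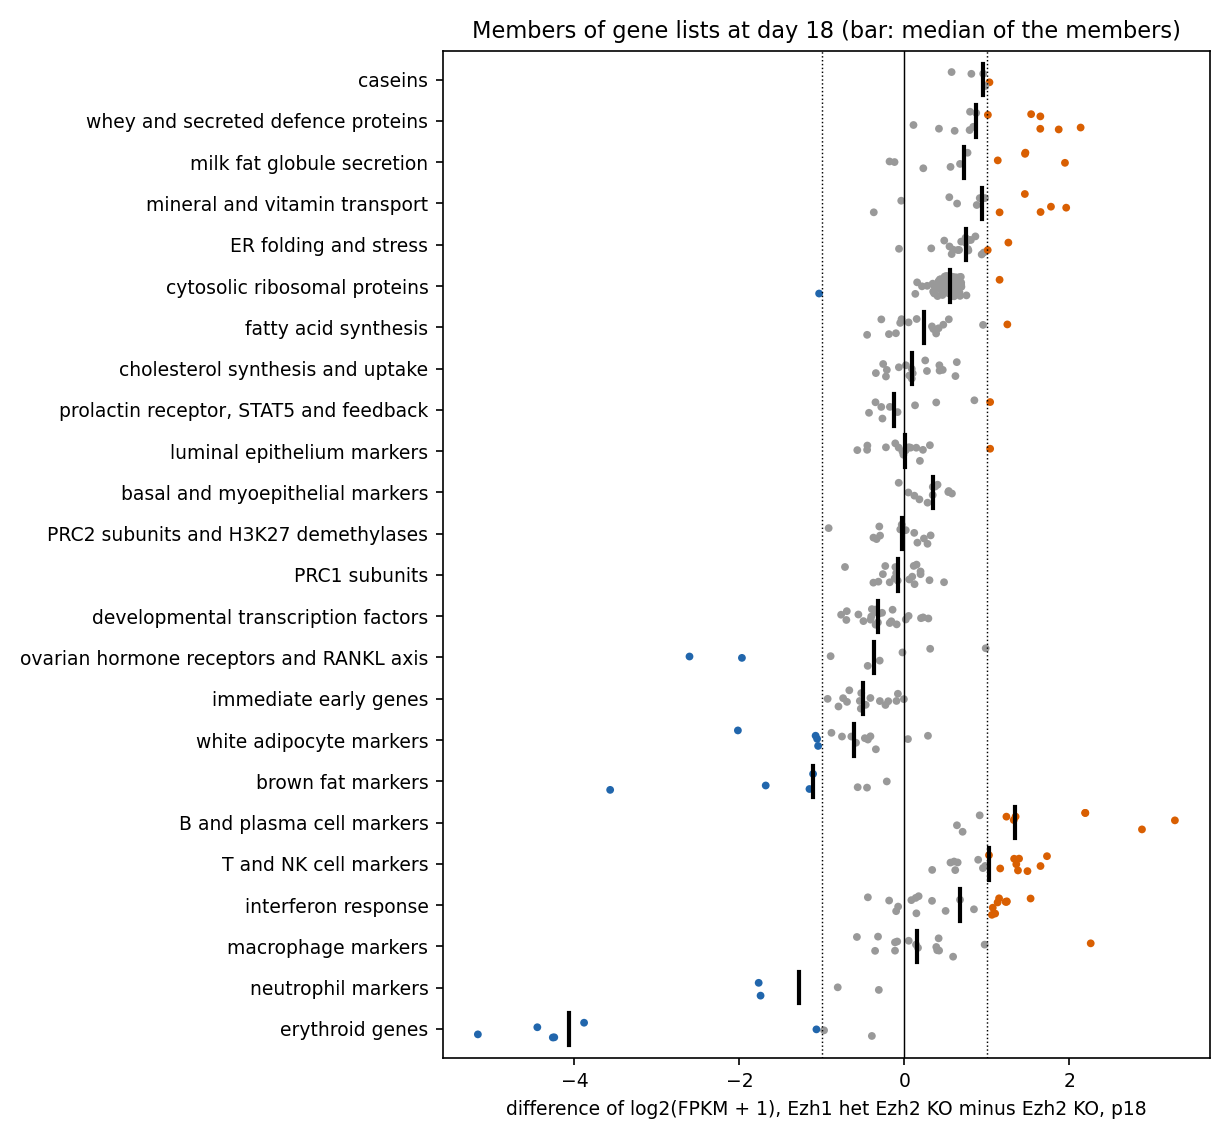
Each point is a member of a gene list that reached 1 FPKM, placed by its difference of log2(FPKM + 1), E1+/-E2KO minus E2KO, at p18 on the deposited scale; orange points lie at 1 or above, blue points at -1 or below, and the bar is the list median. The secretory lists and the lymphocyte lists sit to the right (caseins 0.95, B and plasma cell markers 1.34), erythroid genes furthest to the left (-4.06), and PRC2 and PRC1 subunits around 0 (-0.03 and -0.08); under equal sums points of well expressed genes move left by close to the same amount and the ribosomal protein median reaches 0.00.

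Of 10 genes of the prolactin pathway 1 passed 1, with a median of -0.13 (-0.65 under equal sums). That gene was Elf5, the transcription factor that drives alveolar fate, at 369 FPKM in E2KO and 759 in E1+/-E2KO (1.04). Id2, which alveolar development also needs, was at 117 and 212 FPKM (0.85). Stat5a was at 33.9 and 29.9 FPKM (-0.18), Prlr, the prolactin receptor, at 5.10 and 6.97 (0.39), and Cish, a feedback inhibitor that STAT5 induces, at 33.8 and 24.8 (-0.43). At p13 Elf5 was lower in E1+/-E2KO, at 402 and 248 FPKM (-0.70).

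Some paracrine signals of the hormone-sensing luminal cells were lower in E1+/-E2KO at p18. Tnfsf11, RANK ligand, which relays progesterone to neighbouring cells, was at 6.61 FPKM in E2KO and 0.252 in E1+/-E2KO, 26.3-fold lower (-2.60). Areg, amphiregulin, the EGF receptor ligand that oestrogen induces, was at 7.83 and 1.25 FPKM (-1.97). Calca, calcitonin, was at 102 and 54.2 FPKM (-0.89). Cited1, a coactivator for the oestrogen receptor, lay the other way at 6.80 and 14.4 FPKM (0.98). The receptors differed less: Esr1 was at 2.25 and 1.64 FPKM (-0.30), the RANK receptor Tnfrsf11a at 7.17 and 9.14 (0.31), and the progesterone receptor Pgr at 0.885 and 0.818, under the level for inclusion. Over the 8 members taken, 2 were at or below -1 and none at or above 1, with a median of -0.37 (-0.79 under equal sums), or -0.05 with the 3 members under 1 FPKM. At p13 both ligands were abundant in both groups, Tnfsf11 at 21.2 and 13.7 FPKM (-0.60) and Areg at 22.3 and 17.6 (-0.32). Akr1c18, an enzyme that breaks down progesterone, was at 7.35 and 2.01 FPKM at p18 (-1.47) and at 3.01 and 12.5 FPKM at p13 (1.75).

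On the deposited scale the medians of the luminal and basal marker lists were smaller than those of the milk protein lists. Under equal sums the luminal median was larger in size than those of caseins (0.41) and whey proteins (0.32), and on the other side of 0. The 16 luminal markers taken had a median of 0.00 (-0.51 under equal sums), with 8 above and 8 below 0, and Elf5 was the only member past 1. The 17 luminal markers summed to 2076 FPKM in E2KO and 2471 in E1+/-E2KO, and their part in the milk gene values was not tested. Krt19 was at 357 and 395 FPKM (0.14), Epcam at 193 and 179 (-0.11) and the tight junction gene Cldn3 at 198 and 133 (-0.57). The 12 basal and myoepithelial markers had no member past 1 and a median of 0.34, which turned to -0.19 under equal sums. Acta2, smooth muscle actin of the contractile cells, was at 510 and 661 FPKM (0.37) and Krt14 at 36.3 and 46.3 (0.34). At p13 all 17 luminal markers and all 12 basal markers were below 0, with medians of -0.69 and -0.83, while 48.5% of all genes were above 0. Lower casein values at p13 thus came with lower epithelial markers, and the part of cell composition was not tested. In whole tissue, fewer cells of a type and less RNA per cell cannot be told apart. The 20 DNA replication and mitosis genes had no member past 1 at p18 (median 0.29, -0.23 under equal sums) and were all below 0 at p13 (median -0.62).

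Fat cell transcripts were lower in the E1+/-E2KO glands at p18. Of 14 white adipocyte markers 4 were at or below -1 and none at or above 1, with a median of -0.62 that became -1.16 under equal sums. Lep, leptin, was at 204 FPKM in E2KO and 49.6 in E1+/-E2KO, 4.11-fold lower (-2.02). The lipid droplet coats Plin1 (129 and 60.7 FPKM, -1.08) and Plin4 (55.9 and 26.5 FPKM, -1.05) and the carbonic anhydrase Car3 (3455 and 1659 FPKM, -1.06) also passed the threshold. Adipoq, adiponectin, was at 1198 and 649 FPKM (-0.88), but Cfd, adipsin, was at 1636 and 1685 (0.04) and Retn, resistin, at 481 and 586 (0.28). The 14 markers summed to 8167 FPKM in E2KO and 5397 in E1+/-E2KO, and to 8563 and 17231 FPKM at p13. At p13 all 14 markers were above 0, 5 of them past 1, with a median of 0.87, and Adipoq was at 739 and 1707 FPKM (1.21).

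Most brown fat genes were lower in E1+/-E2KO at both days, by very different amounts. Ucp1, the uncoupling protein that makes heat, was at 32.4 FPKM in E2KO and 1.82 in E1+/-E2KO at p18 (-3.57) and at 65.5 and 1.88 at p13 (-4.53). Cpt1b, which carries fatty acids into mitochondria of muscle and brown fat, was at 3.59 and 0.431 FPKM at p18 (-1.68) and 6.89 and 1.42 at p13 (-1.71). Of the 7 members taken, 4 at p18 and 3 at p13 were at or below -1 and none at or above 1, and the medians were -1.11 and -0.76. With the member under 1 FPKM the p18 median was -0.84. That member, Ppargc1a, was above 0 at p13 (0.19). Prdm16 differed little (-0.21 at p18 and -0.03 at p13), and Dio2 was at -0.45 and -0.76.

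**Figure D3:**
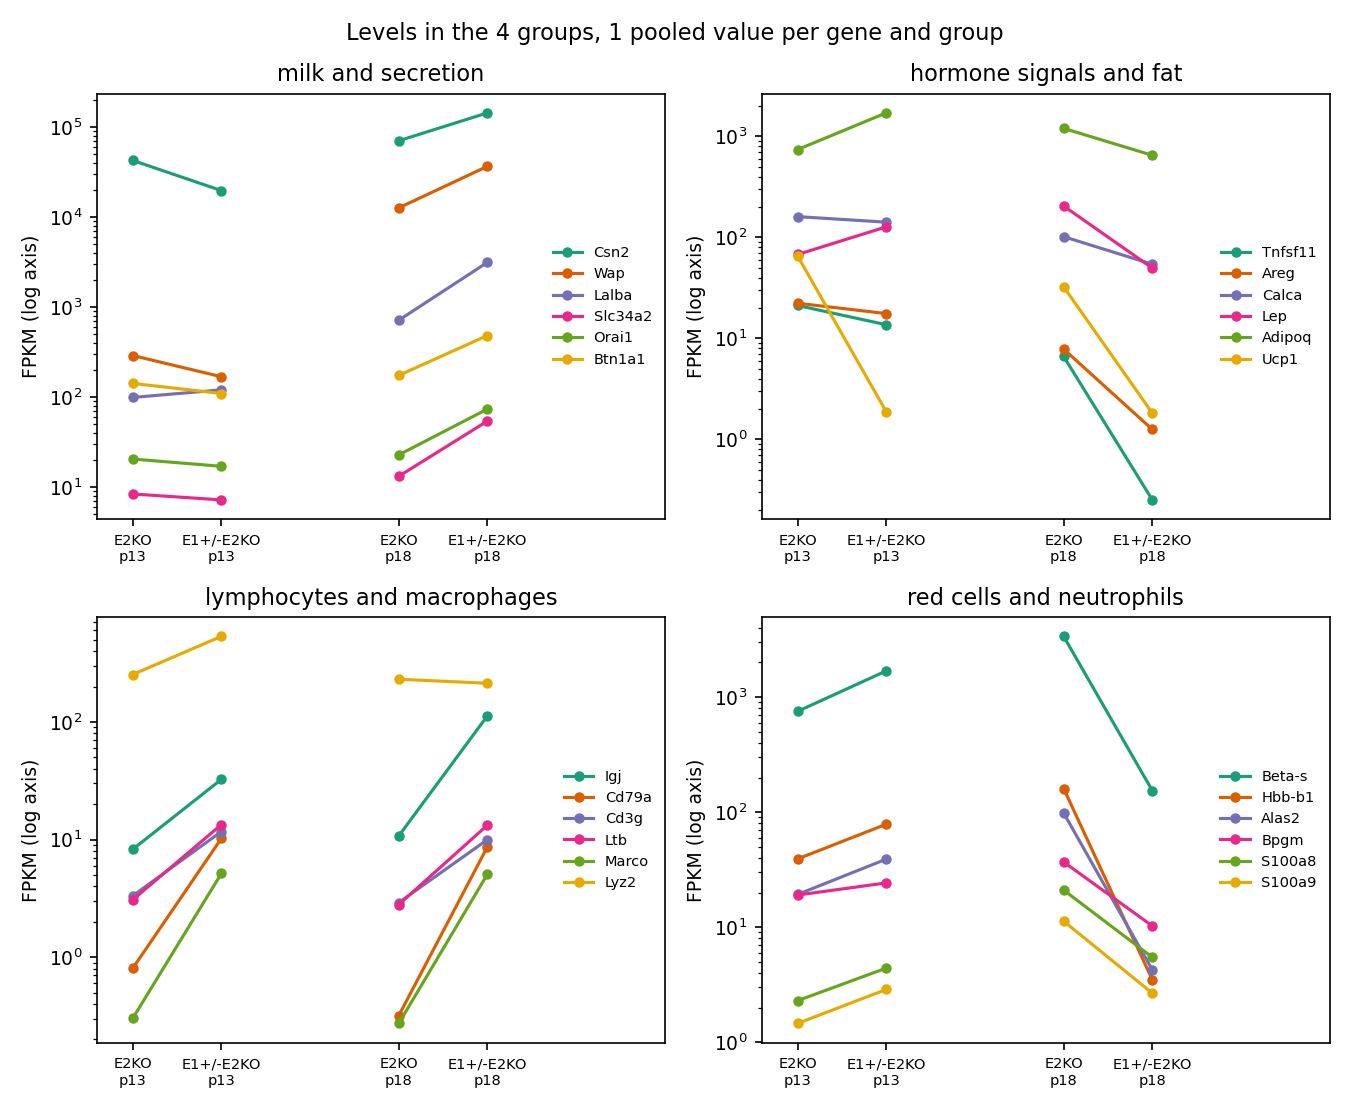
Levels in FPKM (log axis) of 24 genes in E2KO and E1+/-E2KO glands at p13 and p18, 1 pooled value per gene and group, joined by a line within a day; there are no error bars because the table gives no replicate values. Csn2 and Wap slope down at p13 and up at p18, Tnfsf11 and Ucp1 drop most in their panel at p18, Cd79a and Marco slope up at both days, and Beta-s, Hbb-b1 and Alas2 slope up at p13 and down at p18.

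The widest gap among protein-coding genes was in red cell transcripts, which were lower in E1+/-E2KO at p18. Of 8 erythroid genes taken 6 were at or below -1, with a median of -4.06, or -0.97 with the 5 members under 1 FPKM, and the 13 erythroid genes in the table summed to 4832 FPKM in E2KO and 229 in E1+/-E2KO. Beta-s, an adult beta-globin, was at 3376 and 154 FPKM, 22.0-fold lower (-4.45). Hbb-b1 was at 160 and 3.48 FPKM (-5.17), and Alas2, the first enzyme of haem synthesis in red cell precursors, at 98.4 and 4.25 FPKM (-4.24). Globin genes are near-identical copies whose reads can be split in different ways, so their single values are uncertain; Hba-a1 and Hba-a2 together had 985 and 50.7 FPKM at p18 and 252 and 174 FPKM at p13. Bpgm, bisphosphoglycerate mutase, which is abundant in red cells, was lower as well (36.9 and 10.2 FPKM, -1.75). The transcription factors of early red cell precursors were near 0, Klf1 at 0.199 and 0.184 FPKM and Gata1 at 0.0900 and 0.0494. At p13 the erythroid sum had the reverse order, 1105 FPKM in E2KO and 2154 in E1+/-E2KO. The part of blood content in other values was not tested; without erythroid and milk protein genes in the scaling, the casein median was 0.65.

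The erythroid regulator GATA1 binds AGATAA, and a window is shown because Alas2 carries the letters. AGATAA or its reverse complement was found in 2 of 3 windows of erythroid genes, in 6 of 86 windows of the lower genes (6.98%), in 7 of 120 of the higher genes (5.83%) and in 6.14% of windows of all genes taken. It stood in 11.2% of all RefSeq windows. In the Alas2 window the match (the reverse complement, in capitals) begins at -86.
Alas2, chrX:150547167-150547466, plus strand: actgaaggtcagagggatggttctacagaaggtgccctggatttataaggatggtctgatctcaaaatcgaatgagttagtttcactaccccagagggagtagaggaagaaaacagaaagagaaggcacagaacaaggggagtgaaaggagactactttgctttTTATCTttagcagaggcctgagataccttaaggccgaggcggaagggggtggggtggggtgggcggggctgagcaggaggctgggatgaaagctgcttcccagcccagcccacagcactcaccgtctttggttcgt

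Some neutrophil transcripts were also lower. The 4 members taken of 10 in the table had a median of -1.28, or -0.10 over all 10, with 2 at or below -1: S100a8 was at 21.0 FPKM in E2KO and 5.46 in E1+/-E2KO (-1.77), and S100a9, its partner in calprotectin, at 11.3 and 2.66 FPKM (-1.74). The other members taken differed by less than 1. Pglyrp1, which had the highest level, was at 80.3 and 64.6 FPKM (-0.31), and Retnlg at 1.60 and 0.482 (-0.81). Under 1 FPKM in both groups were Cxcr2 (0.771 and 0.639 FPKM) and Csf3r (0.721 and 0.612). The granule genes made by immature neutrophils were near 0, Ngp at 0.134 and 0.139 FPKM, Camp at 0.0255 and 0.219, Elane at 0.207 and 0.156 and Mpo at 0.0104 and 0.0553. At p13 S100a8 was at 2.29 and 4.40 FPKM (0.71).

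Lymphocyte transcripts were higher in E1+/-E2KO at p18 as at p13. Of 10 B and plasma cell markers taken out of 16, 7 passed 1 and none lay below 0, with a median of 1.34 (1.16 to 1.33 under the other scalings), or 0.81 over all 16. Igj, the joining chain of secreted IgA and IgM, was at 10.8 FPKM in E2KO and 113 in E1+/-E2KO, 10.5-fold higher (3.28). Cd79a, a signalling chain of the B cell receptor, was at 0.319 and 8.70 FPKM (2.88), and its partner Cd79b at 0.856 and 7.48 (2.19). The B lineage factor Pax5 was at 0.0142 and 1.54 FPKM (1.32), and the surface marker Ms4a1 was low in both (0.0683 and 1.01 FPKM). The 16 markers summed to 30.9 and 175 FPKM, and at p13 to 36.9 and 120 FPKM. At p13 11 of 13 members passed 1, with a median of 1.55.

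T and NK cell markers had the same order. Their median was below that of the B and plasma list over members taken, and above it over all members. All 17 taken were above 0 and 9 passed 1, with a median of 1.02 (0.74 to 1.01 under the other scalings), or 0.98 over all 19. Cd3g, a chain of the T cell receptor complex, was at 2.91 and 10.0 FPKM (1.49), Cd3d at 1.21 and 5.92 (1.65), and Cd8b1, of cytotoxic T cells, at 1.40 and 6.95 (1.73). Gzma, a granzyme, differed least, at 8.14 and 10.5 FPKM (0.34). The 19 markers summed to 31.8 and 84.4 FPKM at p18 and to 37.0 and 118 FPKM at p13. Ltb, lymphotoxin beta, which organises lymphoid tissue, was at 2.80 and 13.3 FPKM (1.91), and Cxcl13, a B cell chemokine, at 4.14 and 7.05 (0.65). The lymph node chemokines Ccl19 and Ccl21a were listed at 0 in both groups at both days, as was the widely expressed Hmgcs1, so these zeros can be failed estimates and nothing is read from them. The labels state that lymph nodes were taken out of virgin glands and do not state it for these pregnant glands. Whether lymph node tissue was in the samples cannot be read from these values, and its part in the lymphocyte values was not tested.

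Macrophage markers were split. Marco, a scavenger receptor of lymphoid tissue macrophages, was at 0.274 FPKM in E2KO and 5.09 in E1+/-E2KO at p18 (2.26), and at 0.302 and 5.15 at p13 (2.24). It was the only 1 of 16 markers past 1 at p18. The median was 0.15 and turned to -0.31 under equal sums, with Lyz2 at 231 and 213 FPKM (-0.11), C1qa at 126 and 169 (0.42) and the tissue macrophage receptor Cd163 at 4.10 and 2.42 (-0.58). The 7 MHC class II genes taken had no member past 1 (median 0.21, -0.34 under equal sums).

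Interferon response genes stood higher in part. Of 21 genes 9 passed 1 and none lay at or below -1, with a median of 0.67 (0.14 to 0.66 under the other scalings). Gbp1, a guanylate-binding protein, was at 3.65 FPKM in E2KO and 12.4 in E1+/-E2KO (1.53). Ifi44 was at 7.86 and 19.9 FPKM (1.24), Bst2, tetherin, at 254 and 601 (1.24), and Irf7, a transcription factor of the antiviral loop, at 50.7 and 120 (1.23). Irf1, a transcription factor that interferon gamma induces, was at 27.4 and 19.9 FPKM (-0.44), and the antiviral Mx1 and Mx2 differed by 0.08 and -0.19. At p13 Gbp1 was the only member past 1 (3.20 and 11.1 FPKM, 1.52), and the list median was 0.29. B, T and NK cell markers were higher in the same group, with the sums given above, and their part in these values was not tested.

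Interferon-induced genes often carry repeats of the letters GAAANNGAA, and the Ifit1 window is shown because it holds 3. The letters or their reverse complement were found in 11 of 20 windows of the interferon list (55.0%), 24 of 120 windows of the higher genes (20.0%), 10 of 86 of the lower genes (11.6%), 7.03% of windows of all genes taken and 8.56% of all RefSeq windows. The higher genes include 9 of the interferon list itself. In 22 of the 12246 windows of genes taken this motif shared bases with a TTCNNNGAA match. In the Ifit1 window the reverse complements, in capitals, begin at -109, -103 and -84, and the first and second share bases.
Ifit1, chr19:34640639-34640938, plus strand: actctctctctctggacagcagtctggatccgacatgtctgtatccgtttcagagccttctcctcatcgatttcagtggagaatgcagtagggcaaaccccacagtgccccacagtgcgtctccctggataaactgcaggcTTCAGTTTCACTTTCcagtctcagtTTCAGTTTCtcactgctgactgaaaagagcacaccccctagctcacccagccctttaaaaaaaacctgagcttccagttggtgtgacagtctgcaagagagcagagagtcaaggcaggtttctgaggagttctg

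Polycomb genes and their textbook targets gave no value past 1 on the deposited scale with the pseudocount of 1 FPKM. With 0.1 FPKM some passed 1, among them Ezh1, Cdkn2a, Cdkn2b and Hoxa10. Under equal sums Ezh1, Cbx7, Hoxc6, Hoxc8, Hoxa10 and Cdkn2b were among those lower by more than 1. None of the 13 genes for PRC2 subunits and H3K27 demethylases passed 1, and the median was -0.03 (-0.51 under equal sums): Eed was at 10.6 and 11.6 FPKM (0.12) and Suz12 at 14.4 and 17.7 (0.28). None of 19 PRC1 genes passed 1 (median -0.08, -0.53 under equal sums), and the widest was Cbx7, a chromodomain subunit, at 8.79 and 4.94 FPKM (-0.72). Of 56 developmental transcription factors, which PRC2 holds silent in many tissues, 33 were under 1 FPKM in both groups, and the 23 taken had a median of -0.32 (-0.66 under equal sums) with none past 1. Among the widest were Hoxc6 (4.78 and 2.40 FPKM, -0.77) and Hoxc8 (8.27 and 4.69 FPKM, -0.70), which at p13 had the reverse order (Hoxc6 5.64 and 10.5 FPKM, 0.79). Cdkn2a, the cell cycle inhibitor locus that is the classical target of EZH2, was at 0.455 FPKM in E2KO and 1.90 in E1+/-E2KO at p18 (0.997) and at 0.920 and 5.07 at p13 (1.66). Cdkn1a, the p53 target p21, was at 32.7 and 62.1 FPKM (0.90), and Cdkn2b, the neighbour of Cdkn2a, at 3.24 and 1.32 (-0.87).

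Signalling and housekeeping lists stayed mostly inside the threshold. All 16 immediate early genes taken were below 0, none past 1, with a median of -0.50 (-0.91 under equal sums); Jun was at 15.4 and 7.58 FPKM (-0.93) and Junb at 27.2 and 15.2 (-0.80). Cyp1a1, the detoxifying enzyme induced by the aryl hydrocarbon receptor, was at 7.77 and 0.223 FPKM (-2.84), while its relative Cyp1b1 was at 22.3 and 13.5 (-0.68). The nuclear long RNA Neat1 was at 37.5 and 13.5 FPKM (-1.41) at p18 and 30.3 and 69.9 FPKM (1.18) at p13. A pair from the CCN family of matrix-associated signals went apart: Nov was at 5.94 and 31.7 FPKM (2.24) and Cyr61 at 16.9 and 7.83 (-1.02). Of 13 fibroblast and collagen genes Pi16, of adventitial fibroblasts, was the 1 past 1 (47.3 and 20.9 FPKM, -1.14), with Col1a1 at 80.1 and 83.2 (0.05). The 15 ubiquitously expressed genes had none past 1 (median 0.14, -0.41 under equal sums). In all, 19 of 46 lists had no member past 1, 2 had a median of 1 or more (B and plasma cells, T and NK cells) and 3 a median of -1 or less (brown fat, neutrophil, erythroid).

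Among protein-coding genes of at least 5 FPKM in 1 of both groups, the 25 highest differences ran from 3.28 down to 1.65, and several belong to no list. Ppapdc1a, a lipid phosphate phosphatase gene, was at 0.340 FPKM in E2KO and 5.73 in E1+/-E2KO (2.33). Aqp3, which conducts water and glycerol, was at 9.75 and 38.3 FPKM (1.87), and Drd4, a dopamine receptor, at 4.91 and 20.5 (1.86). Apod, apolipoprotein D, was at 21.5 and 79.2 FPKM (1.84), and Mfsd2a, a transporter of lysophospholipids with polyunsaturated fatty acids, at 1.30 and 6.38 (1.68). At p13 Aqp3 (2.96 and 2.16 FPKM) and Drd4 (1.51 and 1.02 FPKM) were low in both groups. The 25 lowest ran from -5.17 to -1.47 and included Sfrp5, a secreted Wnt inhibitor (37.2 and 5.09 FPKM, -2.65), Retnla, a resistin-like secreted protein (536 and 175 FPKM, -1.61), Chrdl1, a BMP antagonist (17.1 and 4.61 FPKM, -1.69), Serpina1b (7.56 and 0.256 FPKM, -2.77), a protease inhibitor with near-identical copies and so uncertain, Gdpd3, a lysophospholipase (6.49 and 0.396 FPKM, -2.42), Pcolce2, which aids collagen processing (43.2 and 9.58 FPKM, -2.06), and Rspo1, a Wnt-enhancing ligand of the luminal epithelium (61.9 and 21.5 FPKM, -1.48).

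In the same contrast at p13, milk, adipocyte and erythroid medians lay on the other side of 0, and lymphocyte and brown fat medians on the same side; the difference between the days was not tested. At p13 399 of 13385 genes were higher by 1 or more in E1+/-E2KO (2.98%) and 95 lower (0.710%). Of 11856 protein-coding genes taken at both days, 111 were higher by 1 or more at p18 and 268 at p13, and 29 were higher at both, 26.1% of the p18 genes and 10.8% of the p13 genes. Of 99 genes lower at p18, 6 were also lower at p13 (6.06% of these and 12.5% of the 48 lower at p13), and 21 were higher at p13 (21.2% of the p18 genes and 7.84% of the p13 genes). Across these genes, which are not independent and were measured in the same libraries, Pearson's r between the differences of both days was -0.14 and Spearman's rho -0.20. Of the 25 highest genes at p18, 9 were also higher by 1 or more at p13 and 1, Cidea, was lower. Of the 25 lowest, 3 were also lower and 5 higher. Hba-a1 is among these 3 and among the 6 genes lower at both days, at 252 and 0.340 FPKM at p13. Its single value is uncertain, because together with its copy Hba-a2 it had 252 and 174 FPKM there.

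**Figure D4:**
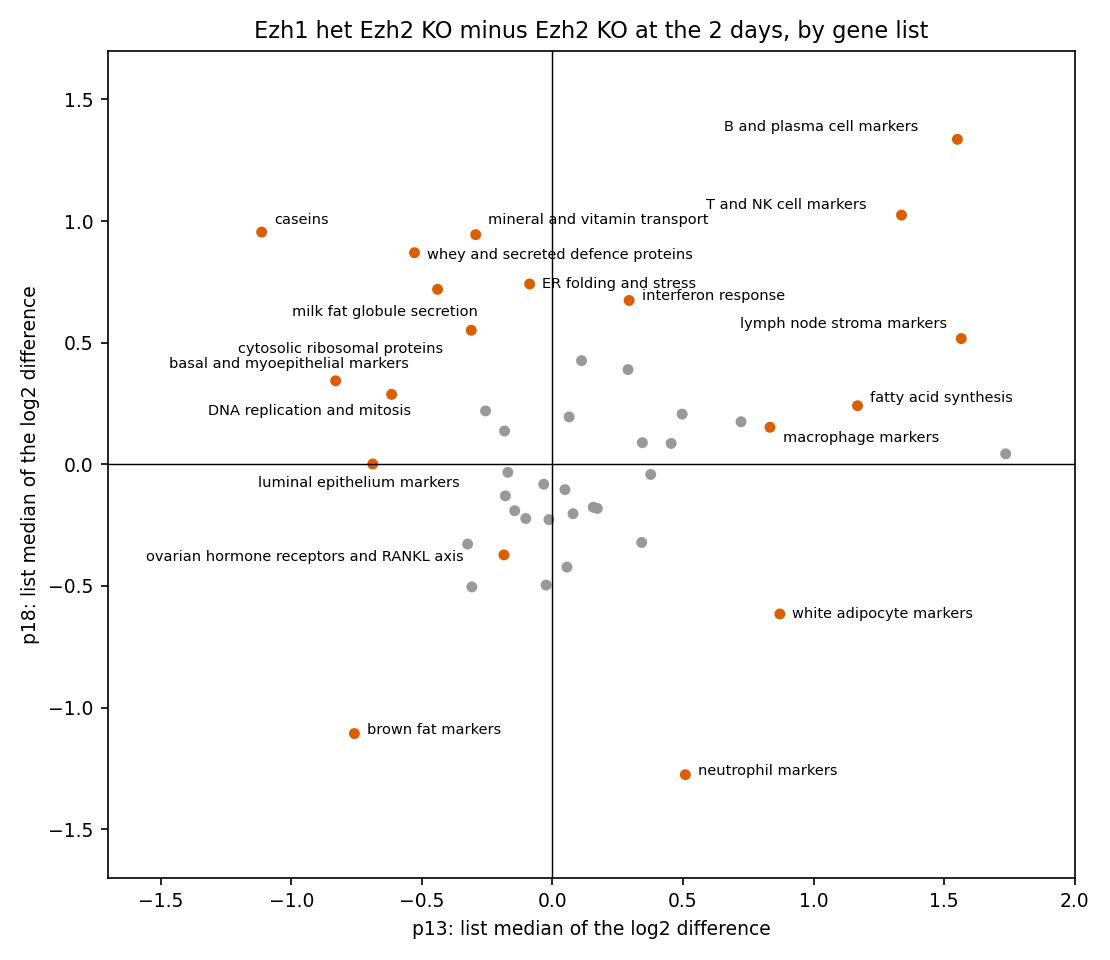
Each point is a gene list, placed by the median difference of log2(FPKM + 1), E1+/-E2KO minus E2KO, of its members at p13 (x axis) and p18 (y axis), on the deposited scale; orange points are labelled, and erythroid genes (0.99 and -4.06) lie outside the frame. Caseins are at -1.11 and 0.95, white adipocyte markers at 0.87 and -0.62, and B and plasma cell markers at 1.55 and 1.34; equal sums shift the median of all genes by 0.13 on the x axis and -0.46 on the y axis, each list by its own amount (caseins to 0.41 and B and plasma cell markers to 1.16 on the y axis), which takes the fatty acid, macrophage, basal and mitosis lists below 0 at p18.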

How the data were processed

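Whole mammary glands gave poly(A) RNA libraries, and the deposited table holds the authors' FPKM for 22552 genes in 12 group columns, 1 value per group, of which 4 were used (2 genotypes at p18 and p13, 3 libraries each). Build mm9 and the tools TopHat, Bowtie, BWA, Cufflinks and Cuffdiff are named, besides HOMER, CASAVA, FastQC and Trim Galore, without roles or versions, per the submitters' processing notes. The way libraries were pooled and the read depth are not given, so no interval or floor was computed. The planned limma fit for replicate columns did not apply.

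From these values the difference of log2(FPKM + 1), E1+/-E2KO minus E2KO, was computed over genes with at least 1 FPKM in either group, and a difference of 1 or more in size was counted; the pseudocount understates differences of low genes. Folds are FPKM ratios without it. Gene lists were described by counts and medians, without a test. Members and lists were chosen with earlier results of these data known. Named genes are Ezh1 and Ezh2, the 25 largest differences in each direction among 8085 protein-coding genes of at least 5 FPKM in either p18 group, and in each list up to 4 members with the largest differences and the 2 with the highest levels; other genes were picked after their values were seen, and a few items are not reported here. Symbols matched RefSeq directly for 20004 genes and by synonym for 2311, and 237 did not match. The computation was tested on simulated data, which says nothing of the real spread between mice. Other pseudocounts, filters, thresholds and scalings were tried. Python 3.11.15, pandas 2.3.3, NumPy 2.4.6 and matplotlib 3.10.9 were used.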

Additional observations from a re-analysis of the deposited data

Results flagged for a closer look

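The genes below differed by 1 or more in opposite directions at p18 and p13 (log2(FPKM + 1), E1+/-E2KO minus E2KO); with 1 value per group the difference between the days was not tested. Among milk genes, Cidea was at 1.95 at p18 and -1.38 at p13, and Csn2 at 1.03 and -1.11. Among red cell genes, Beta-s was at -4.45 and 1.17, and Hbb-b2 at -3.88 and 2.10. Among genes of fat tissue and its stroma, Retnla was at -1.61 and 1.61, Dgat2 at -1.06 and 1.50, Plin4 at -1.05 and 1.03, and Pi16 at -1.14 and 2.50. The progesterone-degrading enzyme gene Akr1c18 was at -1.47 and 1.75, and the nuclear RNA Neat1 at -1.41 and 1.18. These genes were looked for among Ezh1, Ezh2, the 25 highest and 25 lowest genes and the list members that the text could name.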

How the results depend on the processing

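No paired analysis was possible because the table gives pooled group values and no replicate columns; for the same reason no replicate could be left out. The p18 count of 365 genes became 593 with a pseudocount of 0.1 FPKM (256 higher, 337 lower) and 201 with 5 FPKM (93 and 108). At a threshold of 2 it was 112 over all gene types (35 and 77). It was 228 for protein-coding genes alone (109 lower) and 775 with equal sums (80 and 695). Leaving milk proteins out of those sums gave 105 and 345, and leaving out erythroid genes too gave 102 and 358. At p13 the count of 494 became 813 (663 and 150), 216 (167 and 49) and 109 (77 and 32) with those pseudocounts and that threshold, and 50 protein-coding genes were lower. Of the share of calls that were higher at p18, 45.2% on the deposited scale, equal sums left 10.3%, 23.3% and 22.2% in the order given. The 5 lists with a median of 1 or more in size became 1 with a pseudocount of 5 FPKM, 0 without the filter and 1 at a threshold of 2. Under equal sums there were again 5, with white adipocyte markers added (-1.16) and T and NK cell markers lost (0.74). All 50 genes with the largest differences stayed past 1 under 6 of 7 alternatives, and 44 did with a pseudocount of 5 FPKM. None changed sign past the threshold. These 50 were picked for their size in the same values, so nothing is concluded from their staying past 1. Of the 256 genes that the text could name, equal sums left 206 on the same side of the threshold. A further 18 fell inside it and 32 moved past it.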

Other observations

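A pair of gene groups was assembled after the values were seen, and their medians under the other scalings are not given. Of 18 genes of the secretory pathway and its vesicles, 16 were above 0 and 6 passed 1 at p18, with a median of 0.80 and of -0.11 at p13. Of all genes taken at p18, 1.32% were higher by 1 or more. Bhlha15, the transcription factor MIST1 of secretory cells, was at 7.41 FPKM in E2KO and 24.5 in E1+/-E2KO (1.60). Tmem165, a Golgi manganese and calcium transporter, was at 39.2 and 122 FPKM (1.61), Rab18, of lipid droplets, at 95.1 and 265 (1.47), and the ER prolyl isomerase Fkbp11 at 170 and 433 (1.34). Lao1, an amino acid oxidase secreted in milk, was at 343 and 983 FPKM (1.51) at p18 and at 52.0 and 21.3 (-1.25) at p13.

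Of 13 NF-kB pathway genes taken, 12 were below 0 and 3 at or below -1, with a median of -0.69 at p18 and -0.32 at p13. Of all genes taken at p18, 1.60% were at or below -1. The NF-kB gene above 0 was Traf1, at 1.26 FPKM in E2KO and 2.09 in E1+/-E2KO (0.45). Relb was at 17.0 FPKM in E2KO and 6.96 in E1+/-E2KO (-1.17) and Nfkb2, its partner in the alternative pathway that RANK signalling can activate, at 22.1 and 9.55 (-1.13). The inhibitor gene Nfkbia was at 133 and 70.2 FPKM (-0.91), and the chemokine Ccl20 at 2.82 and 0.308 (-1.55). Tnfsf11, RANK ligand, was also low in E1+/-E2KO at p18 (-2.60); a link between them was not tested. Other genes past 1 outside the lists were Tfrc, the transferrin receptor (29.6 and 80.8 FPKM, 1.42), the chemokine Ccl5 (30.7 and 94.9 FPKM, 1.60), the gap junction gene Gjb2 (176 and 79.4 FPKM, -1.13), Thbs1, thrombospondin (47.4 and 19.8 FPKM, -1.22), and the transcription factor Sox4 (21.9 and 8.34 FPKM, -1.29).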
